A study of Homo sapiens with 5 samples.

Results

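The replication-dependent histone genes are the 71 protein-coding genes of the Ensembl annotation whose symbol begins HIST1H, HIST2H, HIST3H or HIST4H. They were chosen by symbol alone, out of 43169 named genes with a row in the deposited tables, and 19 pseudogenes with such symbols were left out. By class they are 6 H1 genes, 17 H2A genes, 18 H2B genes, 15 H3 genes and 15 H4 genes. By cluster they are 55 HIST1 genes, 12 HIST2 genes, 3 HIST3 genes and 1 HIST4 gene.

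Total RNA of WI-38 cells, a human diploid lung fibroblast line with a limited replicative life span, was sequenced in 5 libraries. They came from WI-38 cells at PDL 55 (population doubling level, a count of how often the culture has doubled), cells at PDL 15 given siRNA against AUF1, cells at PDL 15 given siRNA against HuR, cells at PDL 15 given a control siRNA, and cells at PDL 15 with no siRNA in their label. AUF1 and HuR are proteins that bind AU-rich RNA. Each group had 1 library of 1 cell line. Every difference below is therefore one between 2 libraries, without replicates, and carries no p-value or error between cultures.

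Histones are the proteins around which DNA is wound. H2A, H2B, H3 and H4 form the core particle, and H1 binds the linker DNA between particles. The genes described here are expressed mainly in S phase, when new DNA is packaged, and most of their mRNAs end in a conserved stem-loop in place of a polyA tail. The stem-loop is bound by the protein SLBP and is needed for the rapid decay of these mRNAs when DNA synthesis stops. Some of the same genes can also give longer, polyadenylated mRNAs. The library kit amplified RNA with and without a polyA tail, per the labels' protocols, so both forms could be measured.

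The stem-loop is shown because it is the sequence that marks the mRNAs of these genes, and because some of the long transcripts described further on lack it in their models. The GENCODE 29 transcripts of the members (build GRCh38) were searched on the sense strand for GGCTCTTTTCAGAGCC with at most 3 differences. Of the hairpins with 6-base arms and a 4-base loop, these letters are the one held by the most members, so the counts of members with it are a description. A match was present in 32 of the 71 member genes, against 3.52% of 19836 other protein-coding genes, and 17 member genes held the exact letters. Models of many other members stop near the end of the coding sequence, so a missing match says only that these letters are not in that model. In the lines below the 16 bases of the window are in capitals, with 5 bases on each side in lower case.
HIST2H2AA3: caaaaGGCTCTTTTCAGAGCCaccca
HIST2H2BE: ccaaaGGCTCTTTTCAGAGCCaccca
HIST1H2AC: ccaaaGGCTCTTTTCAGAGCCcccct
HIST1H2AI: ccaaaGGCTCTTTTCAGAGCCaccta
HIST1H2BD: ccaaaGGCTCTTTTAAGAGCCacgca
HIST1H4H: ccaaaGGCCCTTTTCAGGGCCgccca
The first 4 held the exact letters, HIST1H2BD differed by 1 base and HIST1H4H by 2 bases. In HIST2H2AA3, on chromosome 1, the model ended 35 bases after the window, and in HIST2H2BE, also on chromosome 1, it ran on for 1729 bases. The other 4 genes lie on chromosome 6. The model of HIST1H2AC has 1654 nt, while the tables give that transcript 546 nt.

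Promoters of H1 genes are shown because members of that class differed most at PDL 55. RefSeq promoters (GRCh38.p14, from 250 bases before to 50 after the start) were found for 61 of the 71 members, and some are shared or overlapping, since several H2A and H2B genes lie head to head. The letters searched on both strands were AAACACA (the H1 box), ATTTGCAT (the octamer), CCAAT and TATAAA, and overlapping matches were kept. AAACACA was present in all 6 H1 promoters, in 1 of 16 H2A promoters, in 2 of 13 H3 promoters and in 5.74% of the 27244 other promoters. ATTTGCAT was present in 9 of 13 H2B promoters, in 11 of 16 H2A promoters and in 1.73% of the other promoters. CCAAT was present in 51 of 61 member promoters and in 35.6% of the others, and TATAAA in 41 of 61 and in 11.8%. The promoters of HIST1H1E, which was far lower at PDL 55, of HIST1H1C, which was inside 2-fold, and of HIST1H2BK, the highest member, are printed with these matches in capitals.
HIST1H1E, chr6:26156079-26156378, plus strand: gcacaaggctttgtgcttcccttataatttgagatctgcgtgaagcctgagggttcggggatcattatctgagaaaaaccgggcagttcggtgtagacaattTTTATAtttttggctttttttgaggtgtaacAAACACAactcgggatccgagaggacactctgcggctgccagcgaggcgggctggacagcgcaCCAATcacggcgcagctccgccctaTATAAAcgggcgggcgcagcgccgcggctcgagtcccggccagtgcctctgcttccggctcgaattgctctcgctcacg
HIST1H1C, chr6:26056421-26056720, minus strand: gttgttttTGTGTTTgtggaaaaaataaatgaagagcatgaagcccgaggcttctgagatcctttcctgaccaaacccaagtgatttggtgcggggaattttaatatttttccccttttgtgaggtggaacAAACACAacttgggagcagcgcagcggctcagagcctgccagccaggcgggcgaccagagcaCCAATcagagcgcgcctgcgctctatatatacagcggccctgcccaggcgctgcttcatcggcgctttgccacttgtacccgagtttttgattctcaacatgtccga
HIST1H2BK, chr6:27146809-27147108, minus strand: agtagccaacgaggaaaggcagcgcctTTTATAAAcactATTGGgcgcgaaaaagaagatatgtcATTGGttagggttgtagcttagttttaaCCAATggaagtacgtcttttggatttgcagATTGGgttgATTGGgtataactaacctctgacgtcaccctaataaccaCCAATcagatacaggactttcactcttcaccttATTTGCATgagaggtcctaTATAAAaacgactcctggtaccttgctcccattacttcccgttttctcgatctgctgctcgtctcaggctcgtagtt
Both H1 promoters held AAACACA about as far from the start, at 117 bases before it in HIST1H1E and 119 in HIST1H1C, and CCAAT at 54 and 57 bases before it. HIST1H1C held a second AAACACA on the other strand at 242 bases before the start and no TATAAA, whereas HIST1H1E held TATAAA on either strand at 29 and 148 bases before it. The promoter of HIST1H1B, which was also far lower at PDL 55, likewise held 2 AAACACA matches and no TATAAA. The promoters of HIST1H1A and HIST1H1D, lower there as well, each held 1 AAACACA match and at least 1 TATAAA match. These matches describe the letters in the window and were not tested against the levels.

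Levels are given as FPKM, fragments per kilobase, scaled to the size of the library and summed over the rows of a gene. Of the 71 genes, 29 had no row under a name that could be traced and 42 had a row. Of these 42, 2 had a row of status FAIL (HIST2H2AB and HIST2H2BF), 2 were listed at 0 in all 5 libraries (HIST1H2AA and HIST1H2BA), and 11 had a mean under 1 FPKM and no value above 3.13 FPKM. The 11 are HIST1H1T, HIST1H2AM, HIST1H2BI, HIST1H3H, HIST2H3A, HIST2H3C, HIST2H3D, HIST2H3PS2, HIST3H2A, HIST3H2BB and HIST3H3. The remaining 27 are called measured, being 5 H1 genes, 9 H2A genes, 7 H2B genes, 2 H3 genes and 4 H4 genes, so H3 and H4 are the least covered classes. The genes with no row are HIST1H2AB, HIST1H2AK, HIST1H2AL, HIST1H2BB, HIST1H2BE to HIST1H2BH without a break, HIST1H2BM, HIST1H2BO, HIST1H3A, HIST1H3B, HIST1H3C, HIST1H3E, HIST1H3F, HIST1H3G, HIST1H3I, HIST1H4A, HIST1H4B, HIST1H4D to HIST1H4G without a break, HIST1H4I, HIST1H4K, HIST1H4L, HIST2H2AA4, HIST2H4A and HIST2H4B. HIST2H2AA3 and HIST2H2AA4 are near-identical copies, as are HIST2H3A and HIST2H3C, so the values of those listed may hold reads of the other copy.

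The siRNA target genes were read first. HNRNPD, which encodes AUF1, had 25.2 FPKM with AUF1 siRNA, against 61.2 with control siRNA and 119 at PDL 15. ELAVL1, which encodes HuR, had 14.8 FPKM in the library labelled HuR siRNA, against 11.8 with control siRNA and 17.6 at PDL 15. On annotated rows alone ELAVL1 had 9.72, 11.8 and 16.7 FPKM in the same order. ELAVL1 thus does not check the label of that library, which is called the library labelled HuR siRNA throughout. Deposited coverage per FPKM, which scales with depth, was 0.300 with control siRNA and 1.14 to 1.29 in the other 4 libraries, so the control siRNA library was the shallowest, and 57.8% of its FPKM times length lay in assembled rows without a gene, against 11.6% to 16.0% elsewhere. Fibroblast markers summed to 1722 FPKM at PDL 55 and to 2333 to 9434 FPKM in the other 4 libraries, 9 of 10 genes without a FAIL row. Over the 5 libraries epithelial markers summed to 10.1 to 19.4 FPKM, endothelial markers to 0.441 to 2.02 FPKM and blood markers to 0.290 to 3.29 FPKM. Of the defining markers, COL1A1 was listed at 0 in the library labelled HuR siRNA and THY1 at PDL 55 and PDL 15, EPCAM and CDH1 stayed under 1 FPKM, KRT18 had 13.9 FPKM at PDL 55 and 2.38 at PDL 15, KRT19 had 0.908 and 6.56 FPKM in these, and HBA1 was listed at 0 in every library. The part of other cells in the results was not tested.

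At PDL 55 4 H1 genes and a part of the H2A, H3 and H4 genes were far lower than at PDL 15, while a different set, led by HIST1H2BK and HIST1H4H, was higher. Summed FPKM of the H1 genes was 20.2 at PDL 55, 106 with AUF1 siRNA, 63.2 in the library labelled HuR siRNA, 86.3 with control siRNA and 112 at PDL 15. The H1 sum was thus 5.54-fold lower at PDL 55 than at PDL 15 and lowest of the 5 libraries. The H2A sums were 61.3, 153, 85.0, 213 and 85.4 FPKM in the same order. The H2B sums were 396, 179, 169, 97.3 and 106 FPKM, highest at PDL 55 by 3.73-fold over PDL 15. The H3 sums were 4.47, 52.5, 14.2, 64.5 and 18.7 FPKM, and the H4 sums 36.3, 19.1, 14.7, 63.2 and 17.1 FPKM. A single gene could carry a class: HIST1H2BK made up 92.5% of the H2B sum at PDL 55 and 85.4% at PDL 15, and HIST1H4H made up 91.7% and 60.8% of the H4 sum. By cluster, HIST1 genes summed to 485, 451, 305, 427 and 304 FPKM and HIST2 genes to 30.3, 56.6, 37.5, 90.2 and 32.6 FPKM. HIST3 genes stayed between 0.784 and 1.38 FPKM in all.

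**Figure D1:**
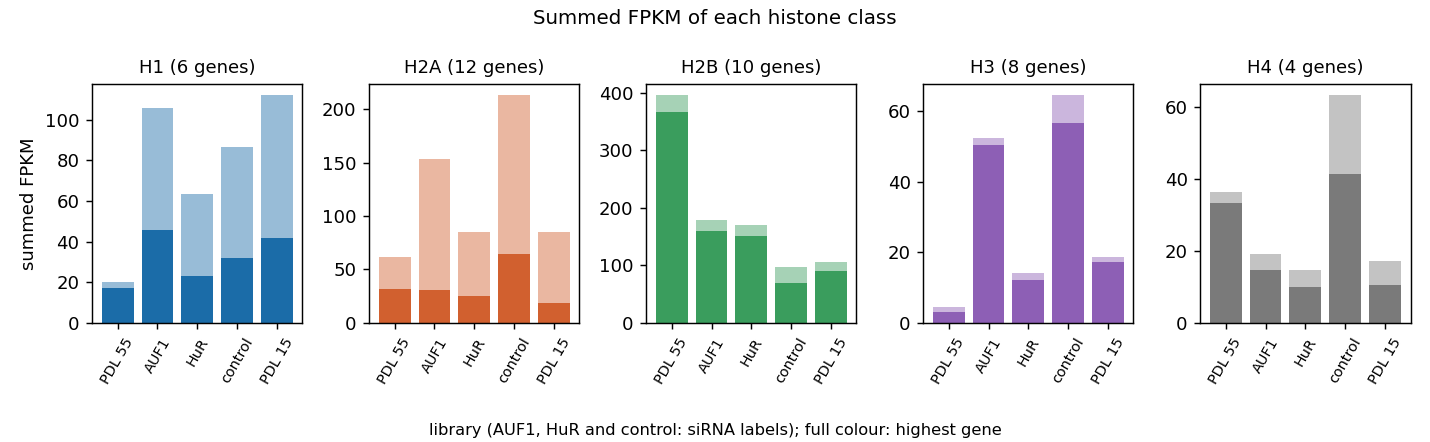
Summed FPKM (y axes, one scale per class) of the H1, H2A, H2B, H3 and H4 genes in each of the 5 libraries (x axes). Full colour marks the highest gene of the class in that library and pale colour the rest. The H1 bar is lowest at PDL 55 (20.2 FPKM), and the H2B bar is highest there (396 FPKM), nearly all of it 1 gene.

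Counts use log2((FPKM + 1)/(FPKM + 1)) relative to the median over all genes measured, and a gene is counted when it is at least 2-fold from that median. Only genes above 0 in both libraries are counted, because a listed 0 may stand for an estimate that failed. At PDL 55 against PDL 15, 9 of 24 members were lower and 5 were higher, where 9.19% and 8.42% of 12603 genes were. The median of the 24 ratios was -0.23, with a range of -3.85 to 2.34. All 14 had deposited 95% bounds, summed over rows, that did not overlap between the libraries. Those bounds describe the estimate within a library and not the spread between cultures. The share of all genes with bounds apart is not given. Here and below, counts of members with bounds apart are therefore description only. In bulk RNA, fewer cells in S phase and less histone mRNA in each cell cannot be told apart.

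**Figure D2:**
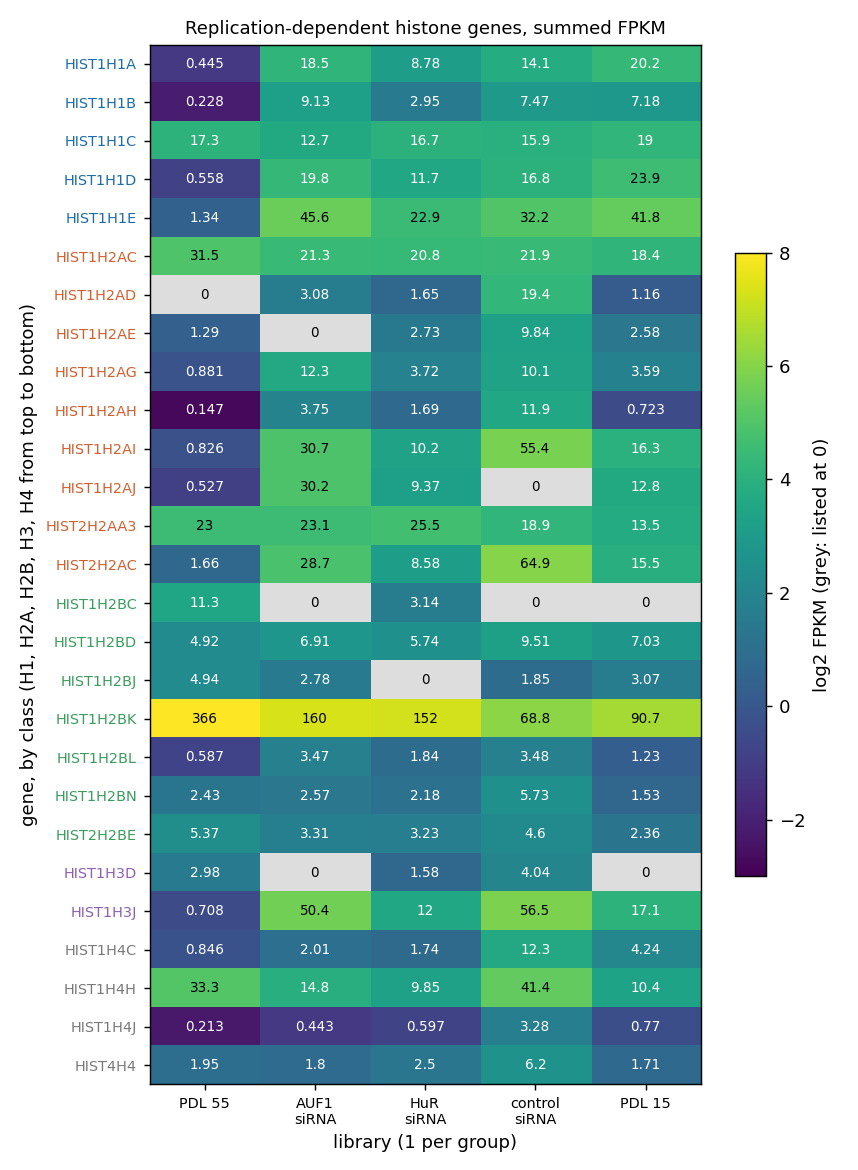
Summed FPKM of the 27 measured genes (rows, grouped by class) in the 5 libraries (columns), printed in each cell and coloured on a log2 scale. Grey cells are listed at 0. HIST1H1A, HIST1H1B, HIST1H1D and HIST1H1E are dark at PDL 55 (0.228 to 1.34 FPKM), and HIST1H2BK is bright in all libraries (68.8 to 366 FPKM).

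The linker histone genes differed most. HIST1H1E (hg19 chr6:26156559-26157343), a main H1 gene of somatic cells, had 1.34 FPKM at PDL 55 (bounds 0.901 to 1.78), 45.6 with AUF1 siRNA, 22.9 in the library labelled HuR siRNA, 32.2 with control siRNA and 41.8 at PDL 15 (bounds 39.3 to 44.3). HIST1H1D had 0.558, 19.8, 11.7, 16.8 and 23.9 FPKM in the same order. HIST1H1A had 0.445, 18.5, 8.78, 14.1 and 20.2 FPKM. In each of these genes the PDL 55 library was the lowest and the library labelled HuR siRNA the next, with the other 3 above it. HIST1H1B had 0.228, 9.13, 2.95, 7.47 and 7.18 FPKM and showed the same order of the 2 lowest. At PDL 55 against PDL 15 the log2 ratios were -3.85 for HIST1H1E, -3.66 for HIST1H1D, -3.54 for HIST1H1A and -2.40 for HIST1H1B, and the levels were 31.1-fold, 42.9-fold, 45.3-fold and 31.5-fold lower. Together these 4 genes summed to 2.57 FPKM at PDL 55 and 93.1 FPKM at PDL 15, 36.2-fold lower. Their PDL 55 values are low, with bounds of 0.177 to 0.714 FPKM for HIST1H1A and 0.0419 to 0.415 FPKM for HIST1H1B. The size and order of the folds of single genes are therefore uncertain.

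HIST1H1C (hg19 chr6:26055968-26056699), an H1 gene known to be expressed also outside S phase, did not share that difference. It had 17.3 FPKM at PDL 55 (bounds 15.6 to 19.0), 12.7 with AUF1 siRNA, 16.7 in the library labelled HuR siRNA, 15.9 with control siRNA and 19.0 at PDL 15 (bounds 17.2 to 20.9). The bounds at PDL 55 and PDL 15 overlapped, and the log2 ratio was 0.21. HIST1H1C therefore made up 85.6% of the H1 sum at PDL 55, whereas HIST1H1E led the sum at PDL 15 with 37.3%. HIST1H1T, the testis H1 gene, had at most 0.348 FPKM, that at PDL 55.

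The H2A genes divided. HIST1H2AI had 0.826 FPKM at PDL 55, 30.7 with AUF1 siRNA, 10.2 in the library labelled HuR siRNA, 55.4 with control siRNA and 16.3 at PDL 15, a log2 ratio of -2.90 at PDL 55 against PDL 15. HIST1H2AJ had 0.527, 30.2 and 9.37 FPKM, was listed at 0 with control siRNA, and had 12.8 FPKM at PDL 15, a log2 ratio of -2.84. HIST2H2AC, on chromosome 1, had 1.66, 28.7, 8.58, 64.9 and 15.5 FPKM and a log2 ratio of -2.30. These 3 were the H2A genes counted as lower, by 19.7-fold, 24.4-fold and 9.34-fold. HIST1H2AG had 0.881, 12.3, 3.72, 10.1 and 3.59 FPKM and stopped just short of 2-fold on that scale (log2 ratio -0.95). HIST1H2AH had 0.147, 3.75, 1.69, 11.9 and 0.723 FPKM, and HIST1H2AE had 1.29 FPKM, a listed 0, 2.73, 9.84 and 2.58 FPKM.

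Another 2 H2A genes were higher at PDL 55. HIST1H2AC had 31.5 FPKM at PDL 55, 21.3 with AUF1 siRNA, 20.8 in the library labelled HuR siRNA, 21.9 with control siRNA and 18.4 at PDL 15 (log2 ratio 1.08 at PDL 55 against PDL 15). HIST2H2AA3 (hg19 chr1:149822643-149823191) had 23.0, 23.1, 25.5, 18.9 and 13.5 FPKM (log2 ratio 1.06). Both lie near the 2-fold limit. HIST1H2AC lay inside it on annotated rows alone (0.44), where it had 20.0 FPKM at PDL 55, and both lay inside it without centring (0.74 and 0.72). HIST2H2AA3 had more FPKM than at PDL 15 in each of the other 4 libraries, and PDL 15 was the lowest. HIST1H2AD was listed at 0 at PDL 55 and had 3.08, 1.65, 19.4 and 1.16 FPKM in the others, so no fold is given.

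Among the H2B genes none of 6 was counted as lower at PDL 55 and 2 were counted as higher. In FPKM alone HIST1H2BL was 2.10-fold lower than at PDL 15, with overlapping bounds. HIST1H2BK (hg19 chr6:27106073-27114619), the most abundant member, had 366 FPKM at PDL 55 (bounds 345 to 387), 160 with AUF1 siRNA, 152 in the library labelled HuR siRNA, 68.8 with control siRNA and 90.7 at PDL 15 (bounds 80.4 to 101). It was 4.03-fold higher at PDL 55 than at PDL 15 (log2 ratio 2.34). Its coding row of 381 nt, of status LOWDATA (the software's mark for a locus too complex or too shallowly sequenced), had 213 FPKM at PDL 55, 122 in the library labelled HuR siRNA, 20.1 with control siRNA and 55.2 at PDL 15. Both annotated rows were listed at 0 with AUF1 siRNA, where 1 assembled row over the coding exon held all 160 FPKM. Assembled rows downstream of the coding exon held 65.8 FPKM at PDL 55, 0 with AUF1 siRNA, 1.33 in the library labelled HuR siRNA, 28.0 with control siRNA and 17.4 at PDL 15. On annotated rows alone the gene had 240 FPKM at PDL 55 and 64.2 at PDL 15, and its log2 ratio was 2.22.

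HIST2H2BE had 5.37 FPKM at PDL 55, 3.31 with AUF1 siRNA, 3.23 in the library labelled HuR siRNA, 4.60 with control siRNA and 2.36 at PDL 15, and its log2 ratio was 1.26 at PDL 55 against PDL 15. Its head-to-head neighbour HIST2H2AC, whose promoter overlaps its own, was 9.34-fold lower in the same comparison. HIST1H2BD had 4.92, 6.91, 5.74, 9.51 and 7.03 FPKM, and HIST1H2BJ had 4.94, 2.78, a listed 0, 1.85 and 3.07 FPKM, and neither was 2-fold apart at PDL 55. The long row of HIST1H2BJ belongs to HIST1H2BG in GENCODE 29 and was given to HIST1H2BJ by the gene identifier in the tables. HIST1H2BL and HIST1H2BN stayed between 0.587 and 5.73 FPKM, highest with control siRNA. HIST1H2BC had 11.3 FPKM at PDL 55 and 3.14 FPKM in the library labelled HuR siRNA and was listed at 0 in the other 3. Assembled rows spanning several members lay over this gene in every library but PDL 55, and their part in its values was not tested.

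The H3 class rested on HIST1H3J. It had 0.708 FPKM at PDL 55 (bounds 0.101 to 1.32), 50.4 with AUF1 siRNA, 12.0 in the library labelled HuR siRNA, 56.5 with control siRNA and 17.1 at PDL 15. It was thus 24.2-fold lower at PDL 55 than at PDL 15 (log2 ratio -3.07). One of its 2 rows runs into the neighbouring gene HIST1H2AM, and the reads of the pair may be mixed. HIST1H3D had 2.98 FPKM at PDL 55, 1.58 in the library labelled HuR siRNA and 4.04 with control siRNA, and was listed at 0 with AUF1 siRNA and at PDL 15.

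The H4 genes, most of which encode the same protein, also divided. HIST1H4H (hg19 chr6:26281283-26285762) had 33.3 FPKM at PDL 55 (bounds 29.3 to 37.4), 14.8 with AUF1 siRNA, 9.85 in the library labelled HuR siRNA, 41.4 with control siRNA and 10.4 at PDL 15 (bounds 8.17 to 12.7). It was 3.20-fold higher at PDL 55 (log2 ratio 1.93). HIST1H4C had 0.846, 2.01, 1.74, 12.3 and 4.24 FPKM and was 5.01-fold lower at PDL 55 (log2 ratio -1.17). HIST1H4J had 0.213, 0.443, 0.597, 3.28 and 0.770 FPKM, and HIST4H4, on chromosome 12, had 1.95, 1.80, 2.50, 6.20 and 1.71 FPKM. Neither was counted as 2-fold apart at PDL 55 on the scale with a pseudocount of 1. In FPKM alone HIST1H4J was 3.62-fold lower there than at PDL 15, with overlapping bounds. HIST1H4C, HIST1H4H and HIST4H4 were highest with control siRNA. So was HIST1H4J, but it passed the minimum mean of 1 FPKM only through that library.

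Several members have a short annotated row, the length of a coding sequence and a stem-loop end, and a longer row that is spliced or extended. In HIST1H2BD the GENCODE model of the short row ended 39 bases after the stem-loop, and that of the long row held no stem-loop match. Both models held AATAAA or ATTAAA, the letters of a polyadenylation signal, in their last 45 bases. The long row of HIST1H2BD (789 nt) had 4.04 FPKM at PDL 55, 1.70 with AUF1 siRNA, 3.72 in the library labelled HuR siRNA, 0.729 with control siRNA and 3.47 at PDL 15. Its short row (523 nt) had 0.885, 5.21, 2.02, 8.79 and 3.56 FPKM. The long row thus held 82.0% of the annotated FPKM at PDL 55 and 49.4% at PDL 15.

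In HIST1H4H the long row (1034 nt) had 13.1 FPKM at PDL 55, 1.10 with AUF1 siRNA, 2.73 in the library labelled HuR siRNA, 1.65 with control siRNA and 1.97 at PDL 15. Its share of the annotated FPKM was 39.3% at PDL 55, against 18.9% at PDL 15. In HIST1H2AC the long row (1615 nt) had 10.3, 2.78, 7.78, a listed 0 and 5.91 FPKM, while the short row (546 nt) had 9.75, 18.5, 13.0, 21.9 and 12.5 FPKM. The long share was 51.3% at PDL 55 and 32.2% at PDL 15. In HIST1H2BN the long row held 68.6% at PDL 55, 56.6% with AUF1 siRNA, 49.5% in the library labelled HuR siRNA, 24.9% with control siRNA and 67.8% at PDL 15. In these 4 genes the long share was highest at PDL 55 and lowest with control siRNA, though in HIST1H2BN PDL 55 and PDL 15 were nearly equal. Other genes did not share that order. In HIST1H2BK the long row (820 nt) held 11.2% at PDL 55 and 13.9% at PDL 15, and 50.7% with control siRNA. In HIST1H2BJ the long row held 38.6% at PDL 55, 11.4% at PDL 15 and 57.9% with control siRNA. In HIST1H3J it held 46.3%, 42.4% and 49.5% in the same order. In each of these genes the long share was highest with control siRNA. The short and long rows overlap, so each split is the authors' estimate from shared reads, and the genes with 2 rows were looked at after their values were seen. An assembled row spanning several members also lay over HIST1H2AC and HIST1H2BD in every library but PDL 55. It held 310 FPKM with control siRNA, 111 with AUF1 siRNA, 95.2 at PDL 15 and 77.4 in the library labelled HuR siRNA. The part of these spanning rows in the shares was not tested. In HIST1H2BC the 11.3 FPKM at PDL 55 all lay in the longer row (647 nt), and both of its annotated rows were listed at 0 in the other 4 libraries, so no share can be compared.

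**Figure D3:**
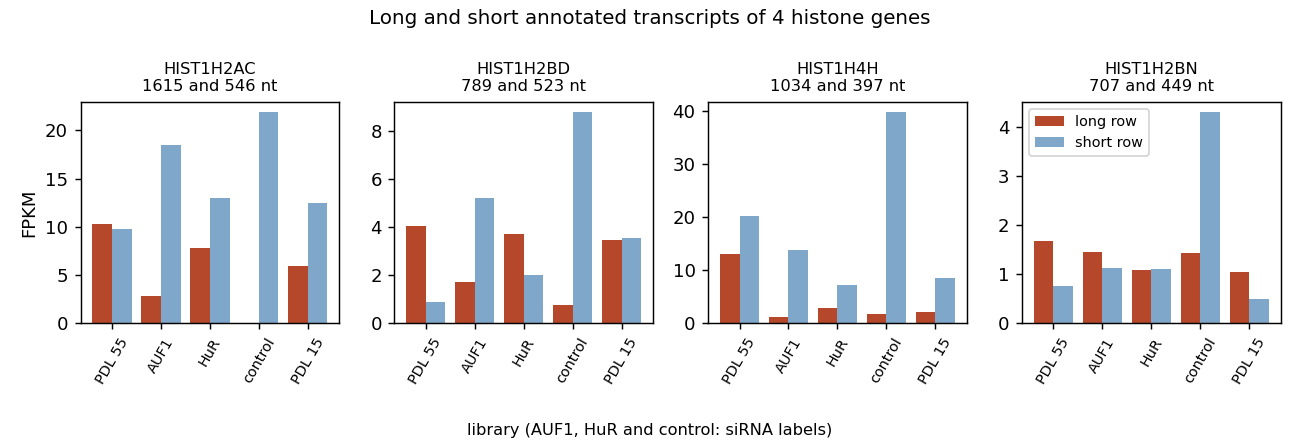
FPKM (y axes, one scale per gene) of the long (red) and short (blue) annotated row of HIST1H2AC, HIST1H2BD, HIST1H4H and HIST1H2BN in the 5 libraries (x axes), with row lengths above each panel. In HIST1H2BD the long row exceeds the short one at PDL 55 (4.04 and 0.885 FPKM), and the short row is highest with control siRNA (8.79 FPKM).

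Histone genes outside the set, which are expressed through the cell cycle with polyadenylated mRNAs or replace the S phase histones in chromatin, were also compared. Of the 12 genes 10 had a mean of at least 1 FPKM, and 9 of these were above 0 at PDL 55 and at PDL 15. Of the 9, 3 were lower and 1 was higher at PDL 55, where 9.19% and 8.42% of 12603 genes were. The median log2 ratio of the 9 was -0.65. CENPA, the centromeric H3 variant gene, was the one left out, with 11.4 FPKM at PDL 55 and a listed 0 in the other 4 libraries, so no fold is given. H2AFZ, the H2A.Z gene, had 54.3 FPKM at PDL 55, 206 with AUF1 siRNA, 225 in the library labelled HuR siRNA, 99.9 with control siRNA and 192 at PDL 15 (log2 ratio -1.46). H3F3B, an H3.3 gene, had 6.22, 5.27, 7.82, 9.91 and 22.6 FPKM (-1.37), and H2AFV, the second H2A.Z gene, had 8.59, 22.7, 21.7, 19.5 and 25.3 FPKM (-1.12). H2AFJ, an H2A variant gene, had 9.41, 4.48, 8.94, 5.61 and 4.78 FPKM (1.19). H2AFY, which encodes macroH2A, was inside 2-fold with 52.9 FPKM at PDL 55 and 79.8 at PDL 15 (-0.25), and so was H2AFY2 with 5.19 and 10.4 FPKM (-0.54). The 9 ratios ran from -1.46 to 1.19.

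Factors that make histone mRNA were mostly close to the median gene. Of 18 measured genes for transcription and 3' processing of histone mRNA, 2 were lower and 1 was higher at PDL 55, with a median of -0.10. Over all genes 9.19% were lower and 8.42% higher, so these counts lie near the shares of all genes. SLBP had 12.4 FPKM at PDL 55, 13.5 with AUF1 siRNA, 14.3 in the library labelled HuR siRNA, 13.6 with control siRNA and 17.6 at PDL 15. NPAT, the activator of histone gene transcription, had rows of status FAIL and gives no value. CCNA2, which encodes cyclin A2, was lower with 0.941 FPKM at PDL 55, 80.3 with AUF1 siRNA, 5.73 in the library labelled HuR siRNA, 5.76 with control siRNA and 32.0 at PDL 15 (log2 ratio -3.75). CASP8AP2, also called FLASH, a processing factor, had 4.13 FPKM at PDL 55 and 13.5 at PDL 15 (-1.17), and CPSF3, the cleaving enzyme, had 14.5 and 30.3 FPKM (-0.68). NCBP1, a cap-binding subunit, was higher with 55.6 and 31.8 FPKM (1.13), and LSM10 (0.72) and NELFE (0.20) were inside 2-fold.

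Of 10 measured genes for histone mRNA decay, 1 was lower and none was higher at PDL 55 (median -0.18). These counts too lie near the shares of all genes, 9.19% lower and 8.42% higher. TUT4, a uridyl transferase, had 6.91 FPKM at PDL 55 and 32.8 at PDL 15 (-1.76). PNPT1 (-0.50), TUT7 (-0.27), EXOSC10 (-0.01), LSM4 (0.13) and UPF1 (0.42) were inside 2-fold. Of 20 chaperone and assembly genes with a mean of at least 1 FPKM, IPO4 and RBBP4 were listed at 0 at PDL 55. Of the other 18, 5 were lower and none was higher (median -0.65), against 9.19% and 8.42% of all genes. HJURP, the chaperone of CENPA, had 2.95 FPKM at PDL 55 and 33.6 at PDL 15 (-2.79), CHAF1B, a subunit of the CAF-1 complex that deposits new H3 and H4, had 0.805 and 7.08 FPKM (-1.82), and MCM2, a helicase subunit that also binds histones, had 0.459 and 5.17 FPKM (-1.74). UBN1 (-0.28), TONSL (0.11) and HAT1 (0.26) were the highest of that list.

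The S phase genes were read beside the histone genes, and their mRNA levels do not measure DNA synthesis itself. Of 19 S phase genes with a mean of at least 1 FPKM, CDC6, MCM7 and RRM1 were listed at 0 at PDL 55. Of the other 16, 9 were lower and none was higher, against 9.19% and 8.42% of all genes. The median of the 16 was -1.31. RRM2, a ribonucleotide reductase subunit, had 2.22 FPKM at PDL 55 and 49.8 at PDL 15 (log2 ratio -3.64), TK1, thymidine kinase, had 1.08 and 14.5 FPKM (-2.56), and RFC3, a clamp loader subunit, had 0.696 and 8.97 FPKM (-2.22). E2F1 (-0.14) and POLE (-0.04) were inside 2-fold. At PDL 55 against PDL 15 these S phase genes were low together with HIST1H1A, HIST1H1B, HIST1H1D, HIST1H1E, HIST1H2AI, HIST1H2AJ, HIST2H2AC and HIST1H3J, and their part in that result was not tested. With control siRNA against PDL 15 the ratios of RRM2 (-0.19), TK1 (0.04) and RFC3 (0.02) were near 0, where HIST1H2AI had 2.15, HIST2H2AC 2.44 and HIST1H3J 2.11. Other S phase genes did differ there. Of 19 measured, 5 were higher and 2 were lower (median 0.08), where 12.4% and 8.99% of all genes were.

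**Figure D4:**
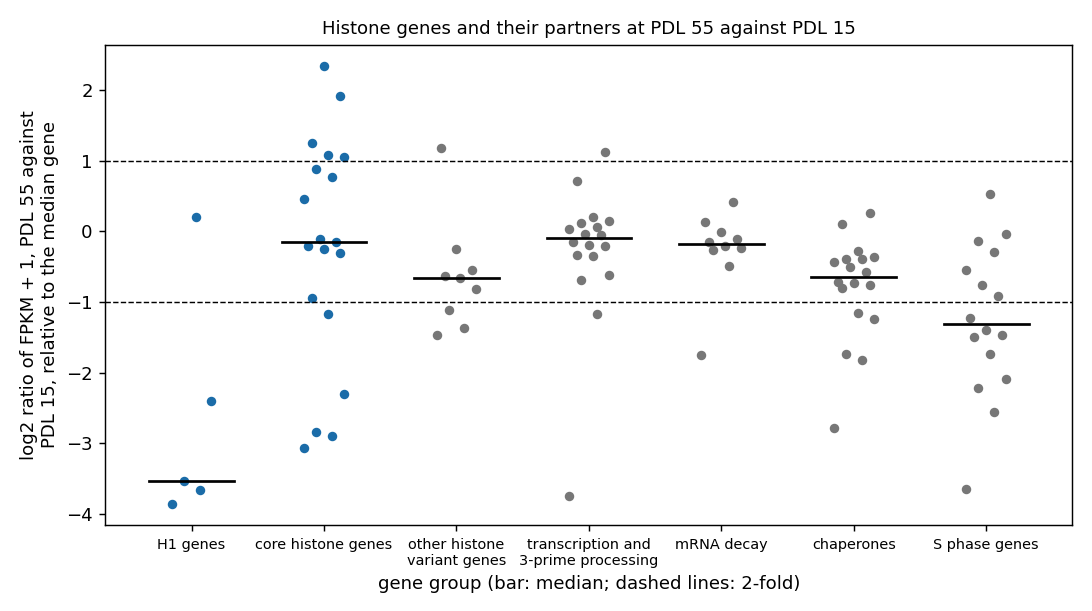
Log2 ratios of FPKM + 1 at PDL 55 against PDL 15, relative to the median gene (y axis), for H1 genes, core histone genes and 5 lists of related genes (x axis). Each point is a gene, bars are medians and dashed lines mark 2-fold. The core histone genes run from -3.07 to 2.34, and the S phase genes have a median of -1.31.

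The siRNA libraries were compared with control siRNA and, because that library stood apart, also with PDL 15. The AUF1 siRNA library and the library labelled HuR siRNA are set against the same control siRNA and PDL 15 libraries, so their ratios share those values and are given side by side only. In the control siRNA library itself against PDL 15, 14 of 24 members were higher and none was lower, where 12.4% and 8.99% of 12482 genes were, and the median ratio was 1.59. All 4 H4 genes, 6 of 8 H2A genes, 3 of 6 H2B genes and HIST1H3J were among the 14, and no H1 gene was. The highest were HIST1H2AD (3.69), HIST1H2AH (3.35) and HIST2H2AC (2.44), and the lowest were HIST1H2BJ (-0.07), HIST1H1A (-0.05) and HIST1H1D (-0.04). Of the 14, 10 had bounds apart. HIST1H4J passed the minimum mean of 1 FPKM only through its value with control siRNA, so its place among the 14 supports nothing. Of 19 measured S phase genes in this comparison 5 were higher and 2 were lower, with a median of 0.08.

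With AUF1 siRNA against control siRNA, none of 23 members was higher and 9 were lower, where 7.64% and 10.2% of 12464 genes were. The 9 were HIST1H2AD (-2.56), HIST1H4C (-2.38), HIST1H4J (-1.80), HIST1H2AH (-1.67), HIST1H4H (-1.66), HIST4H4 (-1.60), HIST2H2AC (-1.38), HIST1H2BN (-1.15) and HIST1H2AI (-1.07), and 6 of them, without HIST1H4J, had bounds apart. HIST1H4J passed the minimum mean only through its control siRNA value, so its place among the 9 supports nothing. Against PDL 15, 9 of 24 members were higher with AUF1 siRNA and none was lower, where 8.33% and 7.59% of 12643 genes were. The 9 were HIST1H2AG (1.74), HIST1H3J (1.71), HIST1H2AH (1.67), HIST1H2AJ (1.38), HIST1H2BL (1.21), HIST1H2AD (1.12), HIST1H2AI (1.08), HIST2H2AC (1.05) and HIST1H2BK (1.02), all with bounds apart. HIST1H2AD, HIST1H2AH, HIST1H2AI and HIST2H2AC thus lay below control siRNA and above PDL 15. The 5 measured H1 genes lay inside 2-fold against either library, from -0.53 to 0.26 against control siRNA and from -0.34 to 0.51 against PDL 15. At the ends were HIST1H2BK (0.97), HIST1H1E (0.26) and HIST1H2BJ (0.18), the highest against control siRNA, and HIST1H4C (-0.59), HIST1H1C (-0.34) and HIST1H4J (-0.09), the lowest against PDL 15. Both ratios of HIST1H2BK (0.97 and 1.02) compare unlike rows. With AUF1 siRNA its annotated rows were listed at 0 and 1 assembled row held its whole value.

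In the library labelled HuR siRNA against control siRNA, none of 24 members was higher and 15 were lower, where 8.21% and 10.5% of 12468 genes were. The median ratio was -1.41 and 10 of the 15 had bounds apart. By class these were 1 of 5 H1 genes, 6 of 8 H2A genes, 2 of 5 H2B genes, both H3 genes and all 4 H4 genes, HIST1H4J again counted only through its control siRNA value. The lowest were HIST1H2AD (-3.30), HIST2H2AC (-3.13) and HIST1H2AI (-2.68), and the highest HIST1H2BK (0.78), HIST2H2AA3 (0.06) and HIST1H1C (-0.28). Without transcripts of status LOWDATA the ratio of HIST1H4H was 0.14 in place of -2.32, and that of HIST1H2BK was -1.06. Against PDL 15 only HIST1H1A was 2-fold apart among 24 members (log2 ratio -1.04, bounds apart), where 6.86% of 12645 genes were lower and 7.73% higher, and the median was -0.03. HIST1H1B (-0.97), HIST1H1D (-0.90) and HIST1H1E (-0.76) were next to it in class and all had bounds apart, while HIST1H1C had -0.10. The 4 genes HIST1H1A, HIST1H1B, HIST1H1D and HIST1H1E summed to 46.3 FPKM in the library labelled HuR siRNA, against 70.5 FPKM with control siRNA and 93.1 at PDL 15. Of 19 measured S phase genes in this library against PDL 15, 2 were higher and none was lower, with a median of -0.01. Among them RFC3 had -0.96 and MCM2 -0.76, while RRM2 had 0.22 and TK1 0.25. The part of S phase genes in the H1 values was not tested. HIST2H2AA3 (0.94), HIST1H2BK (0.81) and HIST1H2AH (0.72) were the highest members. HIST1H4C (-0.86) lay between HIST1H1D and HIST1H1E. ELAVL1 did not check the label of this library, so these directions hold for the library as labelled.

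**Figure D5:**
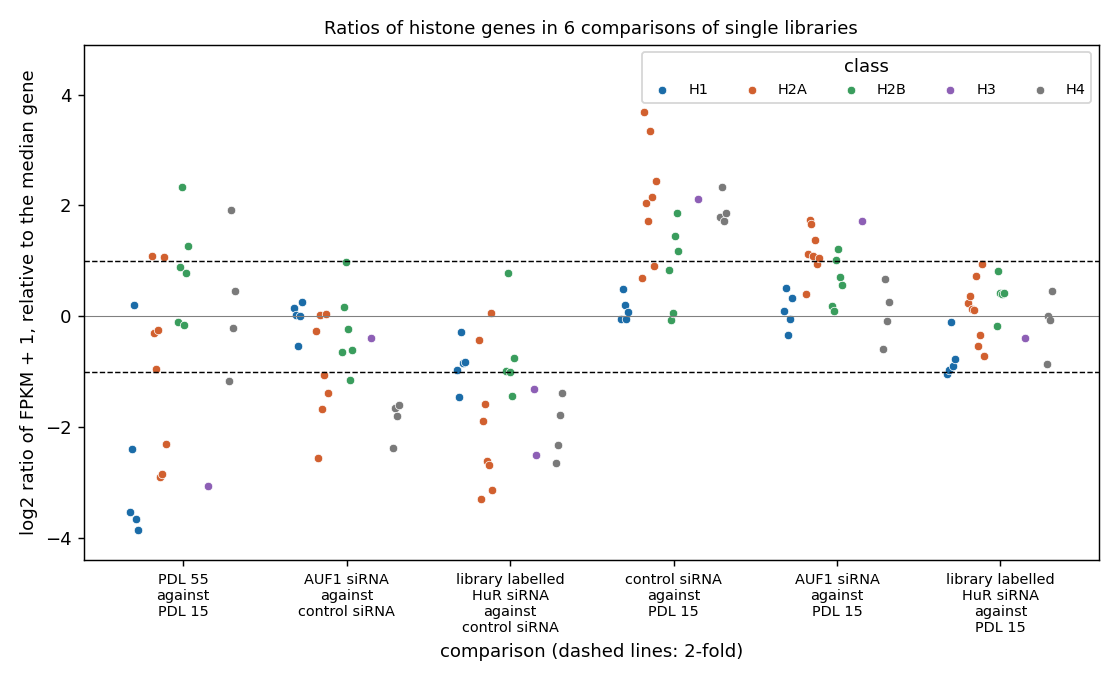
Log2 ratios of FPKM + 1 relative to the median gene (y axis) of the members above 0 in both libraries, coloured by class, in 6 comparisons of single libraries (x axis). Dashed lines mark 2-fold. The H1 points run from -3.85 to 0.21 at PDL 55 against PDL 15 and stay within 2-fold with AUF1 siRNA, while HIST1H4C, HIST1H4H and HIST4H4 lie above 1 with control siRNA against PDL 15.

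Some histone reads lay in assembled rows that span several members and can be given to none. With control siRNA 4 such rows held 749 FPKM, against 525 FPKM in the members themselves. With AUF1 siRNA 4 rows held 188 FPKM and the members 510, in the library labelled HuR siRNA 2 rows held 92.5 FPKM and the members 346, at PDL 15 2 rows held 102 FPKM and the members 340, and at PDL 55 1 row held 0.916 FPKM and the members 518. The largest with control siRNA had 310 FPKM, a transcript of 362 nt spread over hg19 chr6:26123734-26252303 and 8 members. Another of 248 FPKM began at HIST1H2AJ, which was itself listed at 0 in that library. Their part in the results was not tested.

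Within the part of the HIST1 cluster bounded by members with a row (hg19 chr6:25726291-26285762 and chr6:27094058-27860963), 22 unspliced annotated rows of at least 300 and under 1500 nt were counted under no member. Of these, 19 had no traced name, and 3 are named HIST1H4F, HIST1H2BF and HIST1H4B in GENCODE 29 but lie elsewhere in the tables. The 3 were not used for those symbols, but the values below are of all 22 rows. Summed FPKM of the 16 rows in the first block was 12.8 at PDL 55, 51.6 with AUF1 siRNA, 41.9 in the library labelled HuR siRNA, 103 with control siRNA and 60.1 at PDL 15. In the second block, of 6 rows, it was 1.67, 97.4, 36.0, 50.7 and 45.4 FPKM. Of the 22, 10 had a mean of at least 1 FPKM and were above 0 at both PDL 55 and PDL 15. Of these 10, 6 were lower and none was higher at PDL 55, against 9.19% and 8.42% of all genes. Their median log2 ratio was -1.59. Whether the 19 are histone genes is not known from the tables.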

How the data were processed

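Total RNA of 5 WI-38 libraries, 1 per group, was made into cDNA by single-primer isothermal amplification and sequenced on an Illumina Genome Analyzer, per the labels' protocols. TopHat2 2.0.6, Cufflinks 2.0.2, Cuffdiff and the build hg19 are named in the submitters' processing notes. Annotation release, strand and read number are not given in the sources used. The authors deposited, per the file headers, 1 FPKM value per transcript with 95% bounds, a status and a coverage signal. FPKM scales with library size and length, and values of features near the fragment length are uncertain.

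Annotated rows were named from GENCODE 29 (identifiers only), which named 95.1% of 160485 annotated transcripts. Histone identifiers that GENCODE had moved to another gene were checked against their neighbours. Assembled rows were given to a gene when at least 50% of their span lay in it and under 10% in any other. FPKM and bounds were summed per symbol (pandas 2.3.3, numpy 2.4.6). Genes with a FAIL row and small RNA genes were left out, and 13133 genes with a mean of at least 1 FPKM were kept. Log2 ratios used a pseudocount of 1, which understates differences of low genes, and were centred on the median gene, whose deposited log2 ratio was -0.34 at PDL 55 against PDL 15, 0.23 with AUF1 siRNA and 0.35 in the library labelled HuR siRNA against control siRNA, and -0.45 with control siRNA, -0.21 with AUF1 siRNA and -0.08 in the library labelled HuR siRNA against PDL 15. The code was tested on simulated data. With 1 library a group there is no test. Genes at 0 in either library of a comparison were left out of its counts.

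Members with a mean of at least 5 FPKM, the 3 highest and 3 lowest ratios of each comparison, and the 3 highest and 3 lowest genes of each list at PDL 55 were named, except for 1 gene of the S phase list that is not reported here. The members and lists were chosen with earlier results of these data known. The alternatives were a pseudocount of 0.1, no filter on low values, annotated transcripts only, LOWDATA transcripts left out, and no centring.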

Additional observations from a re-analysis of the deposited data

How the results depend on the processing

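The count of 9 members lower at PDL 55 against PDL 15 ran from 9 to 12 over the 5 alternatives. The 5 members higher there became 3 with no filter on low values and 2 without centring, where HIST1H2BK and HIST1H4H were left. HIST2H2AA3 lost its 2-fold difference under both settings, HIST2H2BE without centring, and HIST1H2AC under every alternative but the pseudocount. With AUF1 siRNA against PDL 15 the 9 higher members became 5 with no filter and 5 without centring, and against control siRNA the count of 0 higher became 1 with no filter, without LOWDATA transcripts and without centring, while the 9 lower became 5 without LOWDATA transcripts. In the library labelled HuR siRNA against control siRNA the count of 0 higher became 1 with no filter, on annotated transcripts and without centring. Against PDL 15 its count of 0 higher became 2 with the pseudocount of 0.1 and 1 on annotated transcripts, and its 1 lower became 3 with that pseudocount, 2 with no filter and 2 without centring. With control siRNA against PDL 15 the 14 higher members became 9 without LOWDATA transcripts. The ratio of HIST1H4H in the library labelled HuR siRNA against control siRNA changed sign to 0.14 without LOWDATA transcripts, a setting that removes its short row, and that of HIST1H2BK to -1.06. For the other values the cause was not tested. No paired analysis was possible because each group had 1 library. Spanning assembled rows and the 29 members with no traced row limit all comparisons, and the depth of the control siRNA library limits those that use it.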
